A study of Mus musculus with 7 samples.

Results

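The genes described here encode surface receptors by which leukocytes sense microbes, immune complexes and each other, together with further CD molecules that keratinocytes also carry. They were chosen by symbol: Toll-like receptors (Tlr followed by a number), C-type lectins (Clec), Fc receptors (Fcer and Fcgr), Siglecs, leukocyte immunoglobulin-like receptors (Lilr) and CD molecules (Cd followed by a number). Of 63 matching rows, 8 were left out (Cd74, Cd36, Cd1d1, Cd3e, Cd3g, Cd2, Cd5 and Cd6). This left 55 genes of the 7091 in the authors' deposited table. Symbols, not functions, set the choice, and 1 of the 55, Cd2bp2, encodes a splicing protein inside the cell.

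RNA was sequenced in bulk from epidermis separated from resting (telogen) mouse skin. The mutants, KA mice, have the genotype K14-CreERT;ABCA12-cKO: a conditional allele of Abca12, a lipid transporter needed for the skin barrier, and a Cre recombinase that needs tamoxifen, expressed from the keratin 14 promoter, which is active in basal keratinocytes. Controls have the genotype ABCA12-c/c and no CreERT. Both groups received tamoxifen at 8 weeks of age on 3 days (1 mg for each 40 g of mouse weight), and epidermis was taken 2 weeks afterwards. Deletion and active recombinase thus differ together between the groups. There were 4 KA mice (KA 1 and KA 2 male, KA 3 and KA 4 female) and 3 controls (control 1 and control 3 female, control 2 male), with 1 library per mouse. The animal numbers in the titles form a lower run (4853 to 4857: controls 1 and 2, KA 1 and KA 2) and a higher run (4875 to 4877: control 3, KA 3 and KA 4), which the labels do not call batches.

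The table lists only genes whose adjusted p-value in the authors' own test was under 0.05, so every gene here had already been selected on the contrast described below. A repeated test on such genes is conditional on that selection. Reads in listed genes came to between 9590718 and 12761458 per library, which is not the sequencing depth. Values below are the authors' normalised reads, counts divided by 1 size factor per library (0.888 to 1.247). Abca12 was not analysed here, so the genotypes were taken as labelled. Keratins of the epidermis were abundant in every library, with 220535 or more normalised reads of Krt5 in each. Cd207, the marker of Langerhans cells, was present in all 7 libraries.

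Toll-like receptors, C-type lectins and Fc receptors are sensors of innate immunity. Toll-like receptors signal through the adaptor MyD88 or TRIF to NF-kB. Many lectin and Fc receptors signal through a tyrosine motif (ITAM), often on the shared chain Fcer1g, to the kinase Syk. Many, but not all, Siglec, Lilr and CD300 receptors carry inhibitory motifs that recruit phosphatases. In mouse epidermis the resident leukocytes are Langerhans cells, a dendritic cell of the macrophage lineage, and gamma delta T cells with dendritic shape. Keratinocytes themselves express some of the molecules listed here, among them the hyaluronan receptor Cd44 and several tetraspanins.

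Start-site sequences were searched for motifs, and whether any factor binds them was not tested. Other genes with these motifs are named below. The sequences of 4 genes that moved with genotype and hold a motif are shown as examples. Each runs 5′ to 3′ from 250 bases before to 50 bases after an annotated start (RefSeq, GRCm38.p6), which for Cd80 and Tlr2 lies inside the span listed for the gene, and capitals mark motif matches. Those of Cd207 (minus strand, chr6:83677808-83678107) and Cd80 (plus strand, chr16:38458683-38458982) hold an AP-1 motif as searched here, TGANTCA with N any base. That of Tlr2 (minus strand, chr3:83841559-83841858) holds NF-kB motifs, which overlap at the first place. That of Cd59a (plus strand, chr2:104095551-104095850) holds the interferon response element as searched here, GAAA repeated after any 2 bases.
Cd207: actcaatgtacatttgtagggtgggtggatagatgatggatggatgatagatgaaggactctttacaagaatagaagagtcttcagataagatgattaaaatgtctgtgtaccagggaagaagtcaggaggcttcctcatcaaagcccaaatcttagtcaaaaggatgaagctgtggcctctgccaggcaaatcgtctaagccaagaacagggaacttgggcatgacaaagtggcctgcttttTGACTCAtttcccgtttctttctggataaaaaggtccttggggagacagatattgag
Cd80: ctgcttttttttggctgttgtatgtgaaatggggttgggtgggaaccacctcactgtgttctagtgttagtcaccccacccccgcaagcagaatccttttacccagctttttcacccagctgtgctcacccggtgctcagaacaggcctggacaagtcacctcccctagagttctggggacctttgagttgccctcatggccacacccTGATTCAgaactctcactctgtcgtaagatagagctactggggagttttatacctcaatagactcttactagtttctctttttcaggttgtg
Tlr2: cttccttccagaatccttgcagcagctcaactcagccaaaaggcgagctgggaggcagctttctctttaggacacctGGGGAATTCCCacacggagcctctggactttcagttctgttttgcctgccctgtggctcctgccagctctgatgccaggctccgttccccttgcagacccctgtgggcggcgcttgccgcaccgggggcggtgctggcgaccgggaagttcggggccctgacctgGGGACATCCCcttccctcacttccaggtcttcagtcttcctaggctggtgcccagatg
Cd59a: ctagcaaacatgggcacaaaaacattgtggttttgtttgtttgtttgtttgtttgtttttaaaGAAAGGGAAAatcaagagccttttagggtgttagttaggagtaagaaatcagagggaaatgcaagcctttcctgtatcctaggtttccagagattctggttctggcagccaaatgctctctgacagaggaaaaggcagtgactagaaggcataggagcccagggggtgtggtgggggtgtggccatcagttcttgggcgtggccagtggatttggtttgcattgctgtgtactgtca

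Motifs were searched on both strands in the 41 of 55 genes that had a start-site sequence. AP-1 was found in 3 of these 41 (7.32%), against 8.97% of all 27025 genes. They were Cd80 and Cd207, which rose, and Cd68, which fell. NF-kB was found in 4 (9.76% against 5.14%), the interferon response element in 2 (4.88% against 3.99%) and the PU.1 motif GAGGAAGT in 4 (9.76% against 3.69%). The NF-kB matches lay in Tlr2 and Clec2l, which rose, and in Tlr3 and Fcgr3, which fell. Those of the interferon response element lay in Cd59a, which fell, and in Cd300c, which had too few reads for the test described below. The PU.1 matches lay in Cd300ld, Cd72, Cd53 and Cd82. These counts describe letters in a short window only.

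Of the 55 genes, 39 had a higher mean in KA (70.9%, against 52.6% of all listed genes) and 16 a lower one (against 47.4%). Enough reads for the test were present in 48 (edgeR's quasi-likelihood test, Benjamini-Hochberg adjustment over all 6761 genes tested, threshold 0.05). Of these 48, 31 rose in KA, or 64.6%, where 44.0% of all tested genes rose. A further 15 fell, or 31.2%, where 47.5% of all tested genes fell. Together 46 passed, where 91.5% of all tested genes did, and Cd48 and Cd164 did not. The median log2 fold change of the 48 was 0.85, against 0.22 over all tested genes. The libraries of the groups did not overlap in 52 of the 55 genes, a share of 94.5% that is close to the 93.3% of all listed genes. Rises by at least 1 on the log2 scale numbered 22 of 48 (45.8%, against 16.9% of all tested genes), and falls of that size 9 (18.8%, against 24.6%). Clec10a, Siglech, Cd33 and Lilr4b had 1 to 3 control reads in all and were tested only because of their KA reads. The same holds, among others, for Cd80, with 13 control reads. The counts and shares of rises and the median are therefore a description. Use of the authors' size factors in place of TMM factors raised all fold changes by a median of 0.134 on the log2 scale, and no gene of the 48 turned direction under any alternative in which it was tested.

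**Figure D1:**
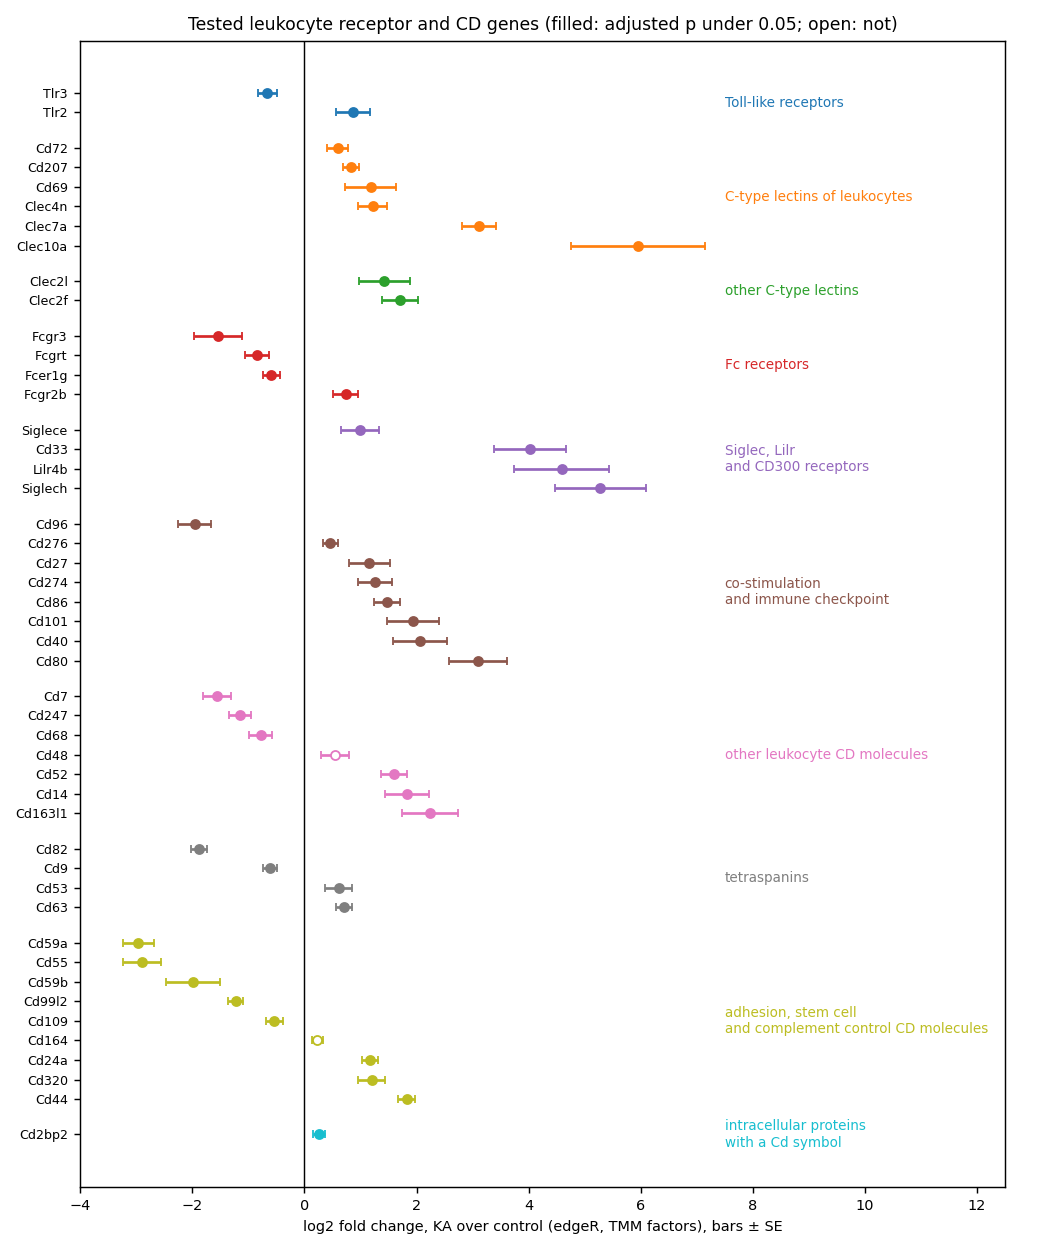
Log2 fold change of KA over control with its standard error for the tested genes reported here, grouped by role. Filled points passed an adjusted p-value under 0.05 (edgeR), and the open points, Cd48 and Cd164, did not. Most lectin, Siglec and co-stimulation genes lie to the right of 0, and Fc receptors and complement control genes lie mostly to the left.

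In bulk RNA, a change in the number of cells of a type and a change in RNA per cell cannot be told apart, which holds for every result below. Among Toll-like receptors, 3 genes were listed and 2 tested. Tlr2, a receptor for bacterial lipopeptides, stood at 35.0, 34.0 and 28.1 normalised reads in controls 1 to 3 and at 57.4, 47.3, 83.6 and 69.6 in KA 1 to KA 4. All KA libraries exceeded all controls, and the log2 fold change was 0.86 (SE 0.30; edgeR adjusted p = 0.019). Tlr3, an endosomal receptor for double-stranded RNA, stood at 198, 179 and 206 in controls and at 150.4, 133, 135 and 121 in KA. It fell, without overlap between the groups, by 0.66 on the log2 scale (SE 0.17; edgeR adjusted p = 0.00448). Tlr7, a receptor for single-stranded RNA, had too few reads for the test, with 0.947, 0 and 0 normalised reads in controls and 3.96, 4.51, 7.31 and 5.19 in KA. Its ratio of KA to control reads was 17.1 (95% exact interval 2.74 to 710.5, counting error only). The Tlr2 call ended without control 3 (edgeR adjusted p = 0.0505) and in the lower run of animal numbers alone (0.289), and the Tlr3 call ended in that run alone (0.0573). Exons of Tlr3 overlap a gene on the opposite strand, as do those of Fcgr2b, Lilrb4a, Cd55, Cd99l2, Cd274, Cd276, Cd72, Cd247, Cd52, Cd7 and Cd9. The strand setting of the counting is not given in the sources used here. Reads in the overlapping parts of these 12 genes may therefore come from their partners, and the size of these parts was not measured.

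All 6 tested genes of the list of leukocyte C-type lectins rose, where 44.0% of all tested genes did. Clec10a was tested only because of its KA reads, so this count is a description. Of the 6 genes, Cd69 and Cd72 are known mainly from lymphocytes. Cd207 (ENSMUSG00000034783, chromosome 6, 83671215 to 83677857 on the minus strand), langerin, the lectin of Birbeck granules in Langerhans cells, stood at 569.9, 742 and 785 normalised reads in controls and at 1481, 1524, 1305 and 1165 in KA. The highest control lay well below the lowest KA library, and the log2 fold change was 0.83 (SE 0.14; edgeR adjusted p = 0.000543). Clec7a (ENSMUSG00000079293, chromosome 6, 129461591 to 129472779 on the minus strand), Dectin-1, the receptor for fungal beta-glucan, stood at 11.4, 18.6 and 13.6 in controls and at 151, 152, 96.1 and 154 in KA. This rise, 9.53-fold in means, gave a log2 fold change of 3.11 (SE 0.30; edgeR adjusted p = 2.88e-05), and KA 3 was the lowest KA library. Clec7a is annotated as a polymorphic pseudogene in the authors' data. Clec4n, Dectin-2, a receptor for fungal mannans that signals through Fcer1g, stood at 67.2, 60.8 and 81.0 in controls and at 256, 154, 126 and 181 in KA. Its log2 fold change was 1.22 (SE 0.26; edgeR adjusted p = 0.00174), without overlap.

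Clec10a, a galactose-type lectin of macrophages and dendritic cells, was near 0 in controls (0, 0 and 0.802 normalised reads) and reached 73.2, 18.0, 10.4 and 13.5 in KA. Controls held 1 read in all, and the ratio of KA to control reads was 96.8 (95% exact interval 17.0 to 3859), with KA 1 far above the other KA libraries. Its fitted log2 fold change of 5.96 (edgeR adjusted p = 0.0014) depends on that read. It was 7.78 without control 3, 4.38 among females, 4.91 with limma-voom and 8.42 in the lower run of animal numbers alone, and 10.6% of its stretches of 50 bases also occur in Mgl2. Cd69, an early activation marker of lymphocytes, stood at 5.68, 13.4 and 27.3 in controls and at 50.4, 37.2, 27.2 and 41.5 in KA. The lowest KA library lay just under the highest control, and the log2 fold change was 1.18 (SE 0.46; edgeR adjusted p = 0.0313). That call ended without control 1 (0.0886), control 2 (0.0868), KA 1 (0.0583) or KA 4 (0.0534), and without control 3 the log2 fold change was 1.93. Cd72, an inhibitory receptor best known from B cells, had a log2 fold change of 0.60 (SE 0.19; edgeR adjusted p = 0.0116), with 0.0601 without control 2. Cd209d was too low for the test, at 3.79, 2.06 and 2.41 in controls and 16.8, 20.3, 6.27 and 10.4 in KA.

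The other 2 lectins, both of the Clec2 family, rose as well, where 44.0% of all tested genes did. Clec2l, with 22, 6 and 42 control reads, needed its KA reads to be tested, so this count is a description. Clec2f, which the table annotates as a transcribed pseudogene, stood at 26.5, 28.9 and 18.4 in controls and at 104, 82.2, 56.4 and 110 in KA (log2 fold change 1.71, SE 0.32; edgeR adjusted p = 0.000974). Clec2l stood at 20.8, 6.19 and 33.7 in controls and at 46.5, 58.6, 78.3 and 59.2 in KA (log2 fold change 1.43, SE 0.46; edgeR adjusted p = 0.0131). In both genes all KA libraries exceeded all controls. Without control 3 the log2 fold change of Clec2l was 2.04.

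Of the 4 Fc receptor genes, 3 fell and 1 rose, where 47.5% of all tested genes fell and 44.0% rose. Fcer1g (ENSMUSG00000058715, chromosome 1, 171229572 to 171234365 on the minus strand), the signalling chain shared by Fc receptors and several lectins, stood at 297, 271 and 295 normalised reads in controls and at 206, 211, 215 and 209 in KA. The groups were tight and did not overlap, and the gene fell by 0.59 on the log2 scale (SE 0.15; edgeR adjusted p = 0.00418). Fcgr3, an activating IgG receptor that needs this chain, stood at 80.5, 97.9 and 28.1 in controls and at 36.6, 23.7, 17.8 and 24.9 in KA. Control 3 lay within the KA range, and the gene fell by 1.55 on the log2 scale (SE 0.43; edgeR adjusted p = 0.00648). Fcgrt, the neonatal Fc receptor, which recycles IgG and albumin, stood at 178, 263 and 271 in controls and at 116, 167, 157 and 138 in KA. It fell by 0.85 (SE 0.21; edgeR adjusted p = 0.00421), and control 1 was the control nearest to the KA libraries.

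Fcgr2b, the inhibitory IgG receptor, rose from 126, 85.6 and 98.6 in controls to 234, 181, 152 and 191 in KA. The groups did not overlap, and the log2 fold change was 0.73 (SE 0.22; edgeR adjusted p = 0.00915). Fcgr2b and Fcgr3 are neighbours on chromosome 1, and 12.8% of the stretches of 50 bases in the Fcgr3 transcript also occur in Fcgr2b, so part of their reads cannot be assigned with certainty. Among females alone (2 controls, 2 KA), the calls of Fcer1g, Fcgrt and Fcgr2b ended, with edgeR adjusted p = 0.0643, 0.0627 and 0.147.

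Siglec, Lilr and CD300 receptors held 0 to 3 control reads in all in 6 of the 8 listed genes, Siglece and Siglecf being the exceptions. The 4 genes tested rose, where 44.0% of all tested genes did. However, Siglech, Cd33 and Lilr4b were tested only because of their KA reads, while Siglecf, lower in KA, fell below the filter. The count of rises is therefore a description. Siglech, a marker of plasmacytoid dendritic cells, stood at 1.89, 0 and 0.802 normalised reads in controls and at 93.0, 31.5, 24.0 and 29.1 in KA. The ratio of KA to control reads was 49.4 (95% exact interval 16.6 to 242), and KA 1 stood above the other KA libraries. The fitted log2 fold change was 5.28 (edgeR adjusted p = 0.000324), 6.20 without control 1, 4.67 without KA 1 and 4.14 among females. Siglece, an inhibitory receptor of neutrophils and macrophages, stood at 27.5, 24.7 and 26.5 in controls and at 81.1, 65.3, 52.2 and 32.2 in KA. KA 4 came closest to the controls, and the log2 fold change of 0.99 (SE 0.34; edgeR adjusted p = 0.0172) did not pass without control 2 (0.0527) or among females alone (0.266).

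Cd33 went from 0, 2.06 and 0.802 to 23.7, 15.8, 16.7 and 17.6 normalised reads, a ratio of 20.3 (95% exact interval 6.67 to 101). Its edgeR adjusted p was 0.000385, and its log2 fold change of 4.03 was 4.95 without control 2 and 4.89 among females. Lilr4b went from 0, 0 and 1.60 to 26.7, 14.6, 8.36 and 26.0, a ratio of 31.3 (95% exact interval 8.36 to 263; edgeR adjusted p = 0.000866), and its log2 fold change of 4.59 was 7.18 without control 3 and 7.29 in the lower run alone. In Lilr4b, 20.2% of the stretches of 50 bases also occur in Lilrb4a. The other 4 genes were too low for the test. Lilrb4a, beside Lilr4b on chromosome 10, stood at 0, 0 and 2.41 in controls and at 19.8, 7.89, 1.04 and 7.27 in KA. It had a ratio of 9.999 (95% exact interval 3.15 to 50.8), but 43.5% of its stretches of 50 bases occur in other genes. Cd300c and Cd300ld had no read in any control, and reached 6.92, 2.25, 3.13 and 3.11 and 3.96, 3.38, 2.09 and 5.19 normalised reads in KA. They were at least 4.29-fold and at least 4.00-fold higher in KA, against a floor of 3 counts over the control group. Siglecf, the Siglec of eosinophils, was the exception, at 18.0, 6.19 and 9.62 in controls and 0.989, 2.25, 4.18 and 1.04 in KA, and was not tested.

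Co-stimulatory and checkpoint molecules showed 7 rises and 1 fall among 8 genes, all of them tested, where 44.0% of all tested genes rose and 47.5% fell. Cd80 was tested only because of its KA reads, so the count of rises is a description. Cd80 and Cd86, ligands by which antigen-presenting cells engage Cd28 and Ctla4 on T cells, both rose. Cd80 (ENSMUSG00000075122, chromosome 16, 38455561 to 38496335 on the plus strand) stood at 7.57, 3.09 and 1.60 normalised reads in controls and at 43.5, 50.7, 24.0 and 37.4 in KA. This was 9.51-fold in means, with a log2 fold change of 3.10 (SE 0.52; edgeR adjusted p = 0.000517) that was 3.94 without control 1. Cd86 stood at 66.3, 57.7 and 102 in controls and at 283, 213, 206 and 219 in KA (log2 fold change 1.47, SE 0.23; edgeR adjusted p = 0.000369).

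Cd40, the receptor through which T-cell help reaches antigen-presenting cells, stood at 15.1, 5.15 and 33.7 in controls and at 115, 91.3, 58.5 and 76.8 in KA. Control 3 was the highest control but still below every KA library, and the log2 fold change was 2.07 (SE 0.48; edgeR adjusted p = 0.00288), or 2.93 without control 3, 1.37 among females and 3.16 in the lower run alone. Cd101 stood at 11.4, 9.28 and 30.5 in controls and at 93.0, 37.2, 73.1 and 88.2 in KA (log2 fold change 1.93, SE 0.47; edgeR adjusted p = 0.00339), and the value was 2.70 without control 3.

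Cd274, the ligand of Pdcd1, stood at 90.9, 176 and 116 in controls and at 350.2, 313, 209 and 466 in KA. Its log2 fold change was 1.26 (SE 0.30; edgeR adjusted p = 0.00319). Cd27, a co-stimulatory receptor of T cells, stood at 10.4, 16.5 and 9.62 in controls and at 23.7, 28.2, 36.6 and 30.1 in KA, a log2 fold change of 1.16 (edgeR adjusted p = 0.0124). Cd276, a checkpoint ligand that many tissues express, had a log2 fold change of 0.46 (edgeR adjusted p = 0.0105). Cd276 did not pass among females alone (0.0819), and Cd27 did not in the lower run of animal numbers alone (0.155).

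Cd96, a receptor of T and NK cells for nectin-like ligands, was the gene of this list that fell. It stood at 113, 122 and 170 in controls and at 35.6, 28.2, 31.3 and 56.1 in KA. All KA libraries lay far below all controls, and the gene fell by 1.96 on the log2 scale (SE 0.29; edgeR adjusted p = 0.000252).

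**Figure D2:**
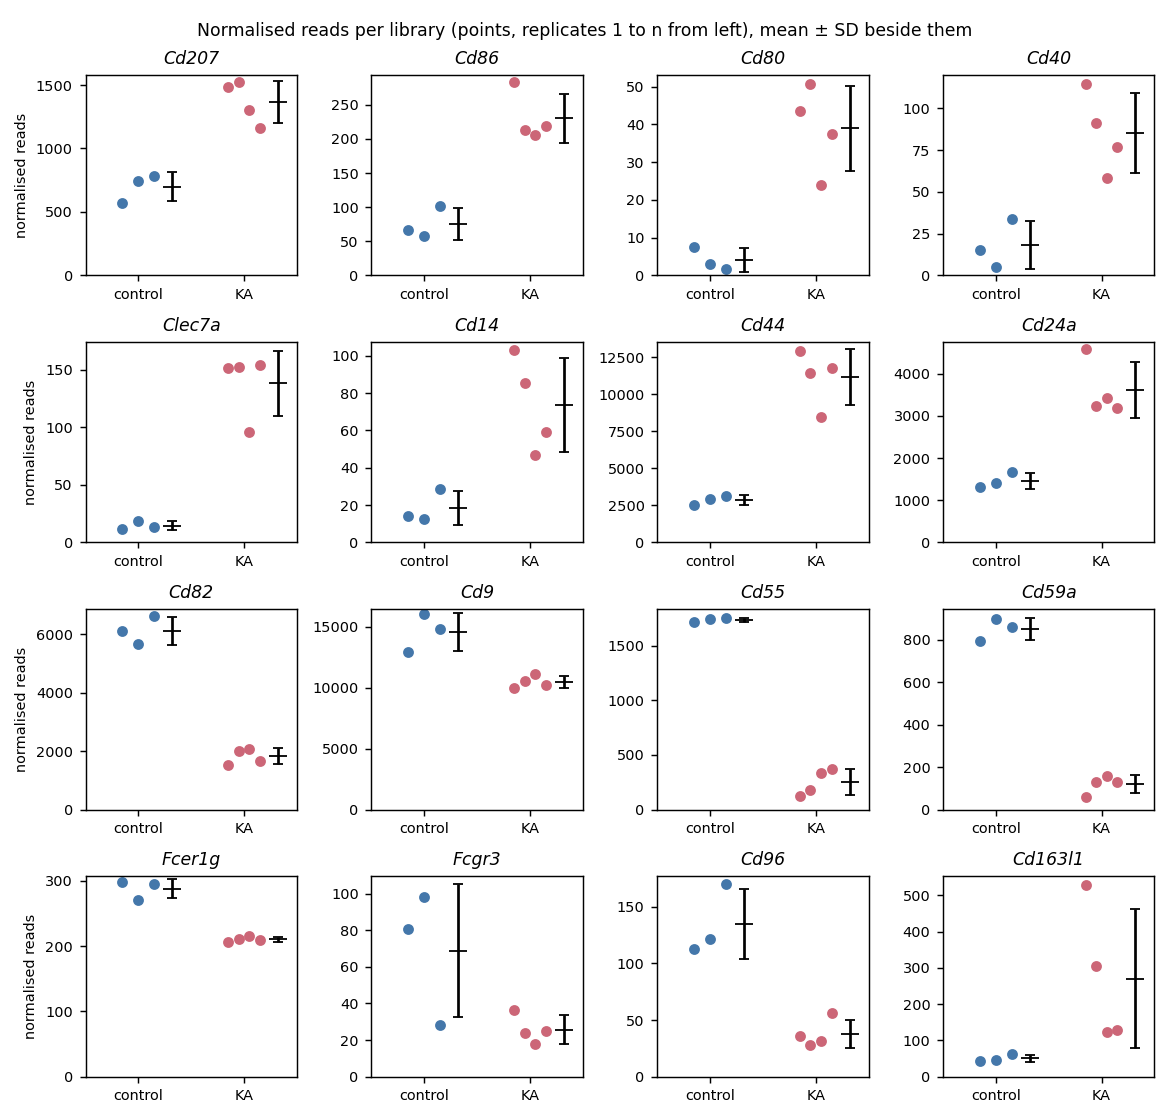
Normalised reads in each library for 16 of the genes, with controls in blue and KA in red, replicates in number order, and the mean ± SD beside each group. Groups are separate in every panel except Fcgr3, where control 3 lies among the KA libraries, and the 4 KA values of Cd163l1 are widely spread.

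Among 9 further leukocyte CD molecules, 4 of the 8 tested rose and 3 fell, where 44.0% of all tested genes rose and 47.5% fell. Cd48 did not pass (edgeR adjusted p = 0.0584, 0.0335 without KA 3, 0.0261 with the authors' size factors). Cd14, the co-receptor of Tlr4 for lipopolysaccharide, stood at 14.2, 12.4 and 28.9 normalised reads in controls and at 103, 85.6, 47.0 and 59.2 in KA. Both KA males were above both KA females, all 4 were above the controls, and the log2 fold change was 1.83 (SE 0.39; edgeR adjusted p = 0.00186). Cd52, a small glycoprotein of lymphocytes and other leukocytes, stood at 222, 292 and 383 in controls and at 1307, 1121, 895 and 667 in KA (log2 fold change 1.60, SE 0.24; edgeR adjusted p = 0.00026). Cd163l1, a scavenger receptor family member known from gamma delta T cells, stood at 44.5, 46.4 and 62.6 in controls and at 529, 304, 122 and 128 in KA. KA 1 and KA 2, the males, stood well above the female KA libraries, and the log2 fold change was 2.24 (SE 0.50; edgeR adjusted p = 0.00251), or 1.13 among females and 3.04 in the lower run alone. For Cd14 these values were 1.20 and 2.67.

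Cd7, an immunoglobulin-family molecule of T and NK cells, stood at 439, 356 and 494 in controls and at 115, 117, 190.1 and 213 in KA. It fell by 1.56 on the log2 scale (SE 0.25; edgeR adjusted p = 0.00042), and again the KA males were the farther from the controls. Cd247, the zeta chain of the T-cell receptor complex, stood at 172, 186 and 210.1 in controls and at 108, 105, 72.1 and 90.3 in KA and fell by 1.15 (SE 0.20; edgeR adjusted p = 0.000553). Cd68, a lysosomal glycoprotein of macrophages, fell by 0.78 (SE 0.21; edgeR adjusted p = 0.00555), from 131, 99.0 and 115 in controls to 78.1, 79.99, 68.9 and 66.4 in KA, and did not pass in the lower run of animal numbers alone (0.0559). Cd38, an ectoenzyme that consumes NAD, had no read in any control, held 15.8, 10.1, 2.09 and 5.19 in KA and was at least 9.14-fold higher in KA, against 3 counts over the control group.

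Tetraspanins, membrane organisers found on most cells, split evenly, with 2 falls and 2 rises, where 47.5% of all tested genes fell and 44.0% rose. Cd82 (ENSMUSG00000027215, chromosome 2, 93419111 to 93463140 on the minus strand) stood at 6097, 5656 and 6611 normalised reads in controls and at 1524, 2010, 2089 and 1679 in KA. Every KA library held far less than any control, and the gene fell by 1.88 on the log2 scale (SE 0.14; edgeR adjusted p = 8.22e-06). Cd9 stood at 12917, 16012 and 14821 in controls and at 9959, 10547, 11094 and 10186 in KA. It fell by 0.61 (SE 0.12; edgeR adjusted p = 0.00123), which did not pass among females alone (0.0648).

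Cd63, a tetraspanin of late endosomes, stood at 1361, 1688 and 2079 in controls and at 3288, 3390.2, 2942 and 2667 in KA (log2 fold change 0.71, SE 0.14; edgeR adjusted p = 0.0014). Cd53, restricted to leukocytes, stood at 113, 91.8 and 104 in controls and at 208, 208, 113 and 164 in KA, with KA 3 barely above the highest control. Its log2 fold change of 0.61 (SE 0.24; edgeR adjusted p = 0.0311) did not pass without control 2 (0.101), control 3 (0.0573), KA 1 (0.0606) or KA 2 (0.087).

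Of 9 adhesion, stem cell and complement control molecules, 3 rose and 5 fell, where 44.0% of all tested genes rose and 47.5% fell. Cd164 did not pass (edgeR adjusted p = 0.0502, 0.0341 without control 1, 0.00796 with the authors' size factors). Cd44 (ENSMUSG00000005087, chromosome 2, 102811141 to 102901665 on the minus strand), the hyaluronan receptor, stood at 2515, 2917 and 3135 normalised reads in controls and at 12886, 11397, 8464 and 11759 in KA. The rise was 3.90-fold in means, with a log2 fold change of 1.82 (SE 0.15; edgeR adjusted p = 1.44e-05). Cd24a, a mucin-like glycoprotein of keratinocyte progenitors and leukocytes, stood at 1306, 1400 and 1666 in controls and at 4595, 3232, 3418 and 3190.4 in KA. KA 1 was the highest, and the log2 fold change was 1.17 (SE 0.14; edgeR adjusted p = 9.59e-05). Cd320, the receptor for transcobalamin, which carries vitamin B12, stood at 100.4, 143 and 134 in controls and at 430.3, 348, 286 and 212 in KA and rose by 1.20 (SE 0.24; edgeR adjusted p = 0.00131).

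The largest falls among the 48 tested genes were in molecules that protect cells from complement. Cd59a (ENSMUSG00000032679, chromosome 2, 104095801 to 104115354 on the plus strand), an inhibitor of the membrane attack complex, stood at 794, 899 and 857 in controls and at 59.4, 131, 158 and 128 in KA. Controls held 7.15 times the KA mean, and the gene fell by 2.96 on the log2 scale (SE 0.27; edgeR adjusted p = 2.69e-05). Cd55 (ENSMUSG00000026399, chromosome 1, 130439027 to 130462744 on the minus strand), decay-accelerating factor, stood at 1713, 1739 and 1752 in controls and at 124, 184, 333 and 375 in KA. Controls were within a narrow range, KA males were lowest, and the gene fell by 2.89 (SE 0.34; edgeR adjusted p = 0.000103), or -3.63 as a log2 fold change in the lower run of animal numbers alone. Cd59b, the neighbour of Cd59a, stood at 18.9, 21.6 and 26.5 in controls and at 3.96, 10.1, 8.36 and 2.08 in KA. It fell by 2.00 (SE 0.48; edgeR adjusted p = 0.00334), and 9.37% of its stretches of 50 bases also occur in Cd59a. In Cd55, 10.9% occur in its copy Cd55b.

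Cd99l2, an adhesion molecule used in leukocyte passage through vessels, stood at 661, 726 and 624 in controls and at 293, 305, 339 and 319 in KA. It fell by 1.23 (SE 0.13; edgeR adjusted p = 5.32e-05), without overlap. Cd109, a co-receptor that dampens TGF-beta signalling, stood at 6586, 5761 and 6323 in controls and at 3793, 4291, 5521 and 5171 in KA. It fell by 0.54 (SE 0.16; edgeR adjusted p = 0.00864), but not past the threshold among females alone (0.102). The splicing protein Cd2bp2 stood at 1347, 1567 and 1639 in controls and at 2016, 2007, 2089 and 1826 in KA. Its edgeR adjusted p was 0.0476 for a log2 fold change of 0.25 (SE 0.11), and 13 of 20 alternative settings put it above the threshold. These include leaving out control 1 (0.101), control 2 (0.0892), KA 2 (0.0877) or KA 3 (0.088).

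Levels of different genes were compared per kilobase of the gene length in the table. Cd9 was highest in both groups, at 7135 normalised reads per kb in controls and 5111 in KA. Cd82 was the second in controls, at 2037 per kb, and ninth in KA, at 607. Cd44 went the other way, from 421 per kb, ninth in controls, to 1642, the second in KA. Cd59a went from sixth (469 per kb) to rank 23 (65.6), and Cd55 from rank 12 (357) to rank 28 (52.3). Cd207 stood at 459 per kb in controls and 899 in KA, above the other leukocyte C-type lectins.

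**Figure D3:**
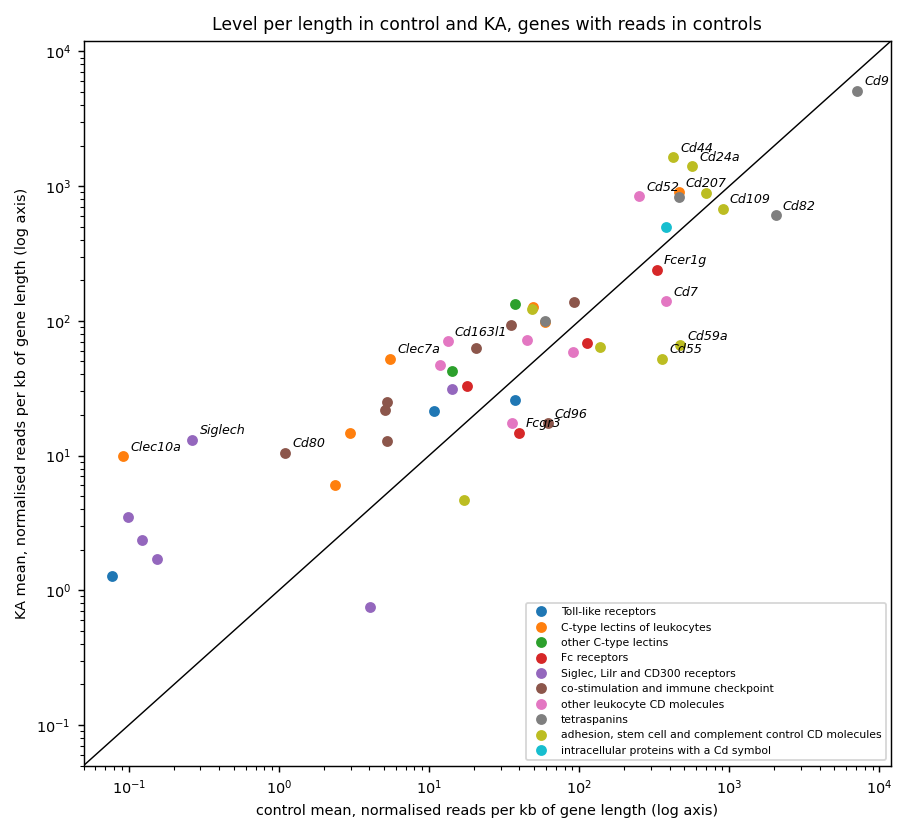
Mean level per kilobase of gene length in controls (horizontal, log axis) and KA (vertical, log axis) for the genes reported here that had reads in controls, coloured by role. Points above the line are higher in KA. Genes at the upper right, such as Cd9, Cd82 and Cd44, are the most abundant, and most of the Siglec and Lilr genes, at the lower left, have few reads.

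Markers of the cells that could carry these receptors moved as well, and their part in the results was not tested. Of 9 Langerhans cell markers 8 were listed and all 8 rose, where 44.0% of all tested genes did. Their summed normalised reads were 25404 to 34897 in controls and 48345 to 74346 in KA. Cd74 alone averaged 12237 in controls and 28021 in KA, against 699 and 1369 for Cd207. Cd74 and the class II genes in this sum are not confined to Langerhans cells, so the sum does not measure these cells alone. Of 11 macrophage and monocyte markers 8 were listed. Of these, 6 of the 7 tested rose, among them Ccr2 (1.89, 7.22 and 9.62 in controls, 205, 154, 87.7 and 113 in KA) and C1qa, and Adgre1 fell (232, 131 and 129 in controls, 65.3, 54.1, 58.5 and 66.4 in KA). Ccr2, C1qb and C1qc, among the 6 rises, were tested only because of their KA reads, so this count is a description. Cybb, a defining gene of phagocytes, was at 0 in every control and at 19.8, 9.01, 7.31 and 9.34 in KA. Of 9 neutrophil markers Cxcr2 was listed, at 0, 1.03 and 4.01 in controls and 386, 219.7, 220.4 and 289 in KA.

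Of 11 T-cell markers 6 were listed, with sums of 1368 to 1739 in controls and 1092 to 1234 in KA. The delta chain Trdc fell, from 457, 379 and 494 to 160.2, 127, 126 and 139, as did Cd3e and Cd3g. Trbc1, the beta chain of the other T-cell receptor, rose, from 140.1, 184 and 148 to 387, 305, 422 and 233, as did Cd2, and Trac did not pass. Of 8 keratinocyte markers 3 were listed and rose, with Krt14 at 97831, 121245 and 129687 in controls and 390177, 366562, 289025 and 348492 in KA. Of 5 B-cell markers 2 were listed, among them Ighm, the heavy chain of IgM. Ighm rose from 176, 96.9 and 164 to 214, 292, 311 and 248 (edgeR adjusted p = 0.0156). Pecam1, the endothelial marker listed of 5, rose, and both listed melanocyte markers, of 6, fell. None of the 6 fibroblast or 9 mast cell markers was listed, and these were not analysed here.

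Levels were next set against Cd207, for genes that Langerhans cells can express, and against Cd3e, for genes of T cells. Both sets were chosen after the values were seen, and other cells can express most of the genes, so a ratio shows unequal change and not change per cell. For 24 ratios, log2 values were compared between groups by a two-sided exact permutation test over the 35 ways to split 7 libraries, whose smallest p is 0.0286. Adjusted over the 24, that p became 0.0624, so no ratio passed.

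The class II genes H2-Aa, H2-Ab1 and H2-Eb1 overlapped between the groups per Cd207 read, with log2 differences, KA minus control, of -0.03, 0.11 and 0.01. Clec4n and Fcgr2b, at 0.35 and -0.10, also overlapped. Cd80 came to 1.33, 0.417 and 0.204 reads per 100 of Cd207 in controls and 2.94, 3.33, 1.84 and 3.21 in KA, a difference of 2.51 on the log2 scale (exact p = 0.0286). Clec7a came to 1.99, 2.50 and 1.74 and 10.2, 9.98, 7.37 and 13.2, a difference of 2.28 (exact p = 0.0286). Cd86, Cd40 and Cd52 also separated without overlap, higher in KA by 0.67, 1.61 and 0.76. Cd68 and Fcer1g separated the other way, at -1.61 and -1.43.

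Against Cd3e, Fcer1g came to 101, 115 and 98.4 reads per 100 in controls and 121, 125, 138 and 111 in KA, with overlapping groups (log2 difference 0.24, exact p = 0.0857). Cd3g and Cd247 overlapped too, at -0.07 and -0.33. Cd96 came to 38.3, 51.5 and 56.7 in controls and 20.9, 16.7, 20.1 and 29.8 in KA, a difference of -1.17 (exact p = 0.0286), and Cd7 was lower by a log2 difference of -0.79 (exact p = 0.0571). The activation marker Cd69, Cd27 and Cd163l1 were higher per Cd3e read in every KA library than in any control, by 2.27, 2.00 and 2.84. These ratios depend on the choice of Cd3e, which itself fell, as did Cd3g and Trdc, whereas Cd2 and Trbc1 rose and Trac did not pass. In means, Trbc1 rose 2.14-fold, Cd69 2.53-fold, Cd27 2.43-fold and Cd163l1 5.30-fold. Ratios to Trbc1 were not computed.

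**Figure D4:**
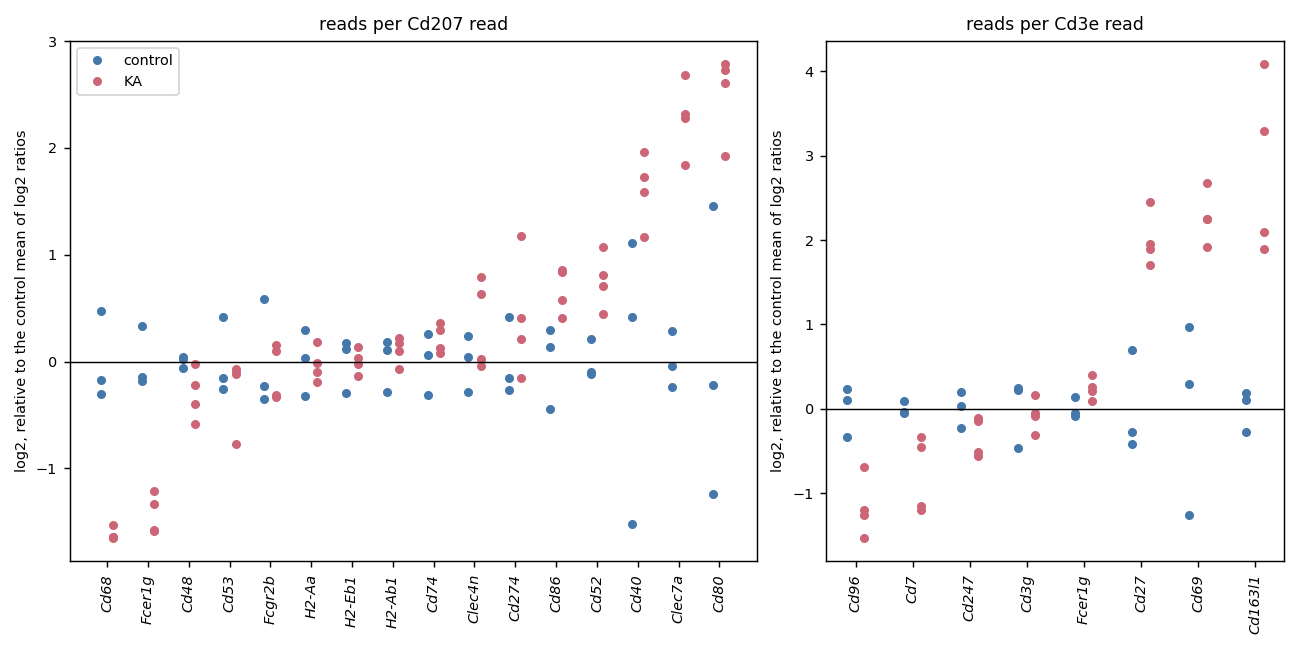
Log2 of the reads of each gene per read of Cd207 (left) or Cd3e (right), set to 0 at the control mean, with each library as a point. On the left, the class II genes and Clec4n overlap between the groups, whereas Cd80, Clec7a and Cd40 lie above and Cd68 and Fcer1g below. On the right, Fcer1g and Cd3g overlap between the groups, Cd96 and Cd7 lie below and Cd27, Cd69 and Cd163l1 above.

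The genes that carry or receive the signals of these receptors were taken from lists of 69 genes, of which 39 were in the table and 38 were tested. Of these 38, 23 rose (60.5%, against 44.0% of all tested genes) and 9 fell (23.7%, against 47.5%). In Toll-like receptor signalling, 15 of 31 genes were tested, with 6 rises and 6 falls. Irak3, an inhibitory kinase-like protein of the pathway, stood at 246, 171 and 177 normalised reads in controls and at 631, 657, 517 and 716 in KA (log2 fold change 1.53, SE 0.18; edgeR adjusted p = 9.01e-05). Nfkbia, the inhibitor that holds NF-kB in the cytoplasm, fell from 10553, 12040 and 13560.4 to 7553, 7669, 8226 and 7157 (log2 fold change -0.79; edgeR adjusted p = 0.000302). Tollip, which dampens Toll-like receptor signals, fell by 0.81 (edgeR adjusted p = 0.000311). The other falls were Tnfaip3, Traf6, Irak2 and Irf7, and the other rises Ly96, Nfkb1, Traf3, Myd88 and Nfkb2.

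Among ITAM adaptors and kinases, 11 of 16 genes were tested, with 7 rises and 2 falls, where 44.0% of all tested genes rose and 47.5% fell. Syk, the kinase that reads the ITAM, fell from 421, 355 and 361 in controls to 146, 139, 152 and 197 in KA (log2 fold change -1.39, SE 0.18; edgeR adjusted p = 0.000138). Vav1, an exchange factor of blood cells, rose from 143, 114 and 122 to 622, 439, 419.9 and 454 (log2 fold change 1.79; edgeR adjusted p = 3.78e-05), and Plcg2, a phospholipase downstream of Syk, rose by 0.82 (edgeR adjusted p = 0.00048). Tyrobp, the other ITAM chain of myeloid cells, rose by 0.78 (edgeR adjusted p = 0.0139) where Fcer1g fell, although KA 4 lay within the control range.

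In inhibitory signalling, 5 of 9 genes were tested, with 3 rises and 1 fall, where 44.0% of all tested genes rose and 47.5% fell. Ptpn6, the phosphatase recruited by inhibitory receptors, fell from 1532, 1334 and 1582 to 933, 1070.3, 1118 and 857 (log2 fold change -0.71; edgeR adjusted p = 0.000924), whereas the receptor Pirb rose by 1.16 (0.00308, and 0.054 among females alone) and the adaptor Dok1 by 0.78 (0.0108, and 0.0905 among females alone). All 7 tested binding partners, of 14, rose, where 44.0% of all tested genes did. Pdcd1 was tested only because of its KA reads, so this count and that of rises among all pathway genes are a description. Ctla4, the inhibitory T-cell receptor for Cd80 and Cd86, stood at 17.0, 25.8 and 16.0 in controls and at 171, 196, 169 and 235 in KA (log2 fold change 3.17, SE 0.28; edgeR adjusted p = 1.73e-05). Pdcd1, the receptor for Cd274, stood at 0, 4.12 and 1.60 in controls and at 137, 59.7, 18.8 and 28.0 in KA, with KA 1 the highest (log2 fold change 4.80, SE 0.94; edgeR adjusted p = 0.00132). Its value was 5.80 without control 2, 4.06 without KA 1 and 5.40 in the lower run alone. Lgals9, galectin-9, rose by 1.29 (0.000166), and the hyaluronan synthases Has2 and Has3, which make the ligand of Cd44, rose by 2.88 (0.00181) and 3.21 (0.00144).

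In the lower run of animal numbers alone (2 controls, 2 KA), 30 of 49 genes rose (61.2%, against 40.5% of all genes tested there) and 13 fell (26.5%, against 46.4%). With a single control the higher run cannot be tested, but both of its KA libraries lay beyond that control in 45 of the 46 genes that passed (97.8%, against 98.1% of all passing genes), Cd69 being the exception. Among females alone 23 of 48 rose (47.9%, against 26.7% of all genes tested there) and 12 fell (25.0%, against 35.2%). Besides the losses given above Cd69 (0.18), Cd72 (0.188), Cd53 (0.451) and Cd2bp2 (0.149) did not pass. Males have 1 control, and in all 46 genes that passed both KA males lay beyond it (100%, against 99.8%). The table had been selected on the same contrast, so these shares are a description.

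Differences between the sexes within KA were looked at after the values were seen. Both KA males lay farther from the controls than both KA females in 20 of the 55 genes (36.4%), close to the 38.6% of all listed genes, and both females lay farther in 6 (10.9%, against 4.53%). The 4 KA libraries were also tested as 2 males against 2 females. Among the 48 genes tested, none had an adjusted p-value under 0.05 (edgeR, 0.0% of all 6557 genes; limma-voom gave 0 as well), and 8 had an unadjusted p-value under 0.05 (7 with limma-voom). The smallest belonged to Cd163l1, with a mean of 417 normalised reads in males and 125 in females (log2 difference, male minus female, 1.70; edgeR unadjusted p = 0.0005, adjusted p = 0.288). Cd55 followed, with 154 in males and 354 in females (-1.23; edgeR unadjusted p = 0.002, adjusted p = 0.324). Both KA males are of the lower and both KA females of the higher run of animal numbers, so sex and run cannot be told apart here.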

How the data were processed

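Bulk RNA-seq of 7 mouse epidermis libraries was used (3 control, 4 KA), each from 1 mouse per the labels. A single table holds raw read counts per gene and, per the file headers, the authors' normalised reads (a signal scale, the count divided by 1 size factor per library), their mean signal, and the authors' log2 fold change, test score and p-values. The submitters' processing notes name fastp, STAR 2.6.1d, featureCounts 1.5.0-p3, DESeq2 1.40.2 and mm10. Strand settings and read length are not given in the sources used here. The deposited p-values and adjusted p-values stand to each other as an adjustment over 19407 genes would give, so the table holds a selected part.

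The deposited counts were tested with edgeR 4.0.16 (R 4.3.3): filterByExpr by group (6761 genes kept, 330 left out), TMM factors, robust glmQLFit and glmQLFTest, Benjamini-Hochberg adjustment over all genes kept. A standard error is the log2 fold change divided by the root of its F statistic. Alternatives used DESeq2 1.42.0, limma-voom (limma 3.58.1) and other settings given in the closing section. On simulated data for this comparison (6699 genes), 72% of genes changed by 1 on the log2 scale and 100% of those changed by 2 were recovered, with 15 false calls. Only 100 genes were changed at each size, none with a low mean, whereas 91.5% of all tested genes passed in the data. The adjustment was therefore stricter in the simulation, and these shares do not carry over to the data. Where a control group held 1 to 3 reads in all, the read ratio has an exact 95% interval, and where it held 0 the fold is a bound against 3 counts. Both reflect counting error alone, because PCR copies cannot be recognised without molecular identifiers.

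Genes, role lists, pathway lists and markers were chosen with earlier results of these data known. Values by library are given for Cd207, Cd14, Cd44, Cd24a, Cd200, Fcer1g and Tlr2 where listed, and for up to 4 genes per role with the largest absolute log2 fold change among those that passed and averaged at least 20 normalised reads. Per pathway list, the 3 passing genes with the smallest adjusted p are given. Other genes were named after their values were seen. The counts include 1 gene that is not reported here by name or in the figures. Positions are those of the table (mm10, 1-based). All 55 identifiers were found in GENCODE M21, 54 with the same start and end. Exons of 14 of the 55 overlap another gene, in 12 of them on the opposite strand, so reads in the overlapping parts are uncertain. Shared stretches of 50 bases were counted in the longest transcript.

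Deviations of same-numbered libraries correlated at -0.192, 0.129 and -0.097. Those of differently numbered libraries ranged from -0.198 to 0.19, so these few values cannot decide whether the libraries were paired. The titles also carry letters, A to C, each shared by control and KA mice. KA 4 has the letter of control 3 and KA 3, but a block by sample number keeps it apart. A block by letter was not tested.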

Additional observations from a re-analysis of the deposited data

Results flagged for a closer look

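Within the 4 KA libraries of each of the 55 genes, the gap from the highest or lowest library to its nearest neighbour was divided by the whole range. This ratio exceeded the 95% limit of Dixon's test for 4 samples in 4 genes, where chance gives about 2.75 of 55. KA 1 stood above the others in Clec10a (ratio 0.879), Cd24a (0.838) and Siglech (0.891). KA 3 stood below the others in Clec7a (0.96). In these genes all KA libraries still lay above all controls.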

How the results depend on the processing

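Of the 48 tested genes, 29 kept their side of the threshold under all 20 settings of normalisation, filter, tool, covariate, left-out library, subset and adjustment, as did Clec10a and Lilr4b under the 18 and 16 in which they could be tested. None of the 48 turned direction where tested. The rises numbered 26 and the falls 15 with the sample number as a replicate block, which ended the calls of Cd276, Cd2bp2, Cd53, Cd69 and Tlr2. The correlations between libraries cannot decide whether the numbers mark pairs, and a block by the letter in the titles was not tested. Leaving out 1 library at a time gave 27 to 31 rises and 15 to 16 falls, and 18 to 27 rises and 8 to 9 falls among the pathway genes. DESeq2 gave 30 rises and limma-voom 32, with 15 falls in both. With no filter, 37 rose and 16 fell. Requiring a log2 fold change of at least 1 left 9 falls, and 11 rises and 2 falls among the pathway genes. In the pathway genes an adjusted p-value under 0.01 left 15 rises, and females alone gave 11. Adjustment over all 19407 genes left 27 rises and 15 falls, without Tlr2, Cd53, Cd69 and Cd2bp2. The test of the lower run of animal numbers was added after the data were seen. Few control reads limit the folds of Clec10a, Siglech, Cd33, the Lilr genes and Tlr7. Nothing in the labels says that the mice were from separate litters, so p-values measure the spread between these animals.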

Other observations

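Some genes that lie close together did not move alike. On chromosome 1, Fcgr2b rose while Fcgr3 and Fcer1g fell. On chromosome 7, Cd33 and Siglece rose, whereas Siglecf, untested, stood at 18.0, 6.19 and 9.62 normalised reads in controls and 0.989, 2.25, 4.18 and 1.04 in KA.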
